A study of Rattus norvegicus with 12 samples.

Results

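Blood kept in the cold for 10 days (10 d) was compared with fresh blood (Cont) over all genes that had enough counts in purified red blood cells (RBCs). All 8 libraries came from male wild-type Wistar rats aged 11 weeks, whose whole blood was drawn into the anticoagulant CPDA, and the RBCs of both groups were purified by repeated washing with removal of the buffy coat. The 4 Cont libraries were made from blood with 0 days of storage and the 4 10 d libraries from blood stored for 10 days, out of 12 libraries in the study. Total RNA was depleted of rRNA and read as short read pairs, so that RNAs without a poly(A) tail were also counted. Of the 29539 genes of the deposited table, 8205 were tested. The 10 d samples were purified after their storage and hence on another day than fresh blood, so that storage and purification day cannot be told apart. The blood of each rat was divided over the storage conditions, but no source ties a replicate number to a rat. The 2 groups were therefore treated as independent, and p-values measure only the spread between these libraries.

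A red cell has lost its nucleus by the stage of the reticulocyte, its last precursor, and loses its mitochondria and ribosomes as the reticulocyte matures. Its RNA is therefore mostly what the reticulocyte has left over: globin mRNA, membrane and heme enzyme mRNA, and transcripts of the ubiquitin and autophagy systems that remove the organelles. Cells without a nucleus make no new nuclear transcripts, whereas leukocytes carried along through the washes have a nucleus and platelets bring RNA of the megakaryocyte. A purified RBC sample holds RNA of all these sources, and in such bulk samples fewer cells of a type and less RNA per cell cannot be told apart.

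The libraries held 65735930 to 85996710 counts in Cont and 71414307 to 79472764 in 10 d, of which alpha and beta globin genes took 79.8% to 82.5% and 80.1% to 82.3%. Levels are given as CPM, counts scaled to a common library size, with that size corrected by TMM, a factor that assumes that most genes do not change, and a difference is the log2 fold change of 10 d over Cont. The TMM factors were 0.978 to 1.24 in Cont and 0.818 to 0.937 in 10 d, and Cont replicate 1 was the only Cont library with a factor under 1. If libraries were scaled by their total counts alone, the median log2 fold change of all genes tested moved from −0.0010 to −0.35. Each fall called under TMM was also called with library size alone, whereas a rise smaller than the shift turned its sign, and "under both scalings" marks below the genes called in the same direction either way at an adjusted p under 0.05 in edgeR's quasi-likelihood test with Benjamini-Hochberg adjustment over all 8205 genes.

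Under TMM scaling, storage for 10 days went with many modest rises, most of them among abundant transcripts, and with falls that were larger in size and lay mostly outside the most abundant quintile. In all, 646 genes (7.87% of those tested) were higher in 10 d and 531 (6.47%) were lower. With library size alone 88 genes (1.07%) were higher and 1842 (22.4%) lower. The same direction under both scalings was found for 88 higher (1.07%) and 531 lower genes (6.47%). The median log2 fold change was 0.51 among the 646 higher genes and −1.43 among the 531 lower genes. The log2 fold change was at least 1 in size in 56 of the higher and 416 of the lower genes. The mean level over the 8 libraries had a median of 10.6 CPM in the higher genes, 0.787 in the lower genes and 0.793 in all genes tested. When the genes were divided into quintiles by that mean level, from the least to the most abundant, the higher genes numbered 10, 23, 34, 113 and 466. The lower genes numbered 69, 121, 170, 135 and 36 in the same order, so that the middle quintile held the greatest number. In the most abundant quintile 28.4% of genes were higher and 2.19% lower, whereas 0.609% to 6.89% were higher in the other quintiles. The shares of gene lists below are set beside those of all genes tested and were not matched for level. Without Cont replicate 2, the counts were 426 higher and 335 lower genes, and the genes higher under both scalings were 41. Without 10 d replicate 2 the last number was 44.

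**Figure D1:**
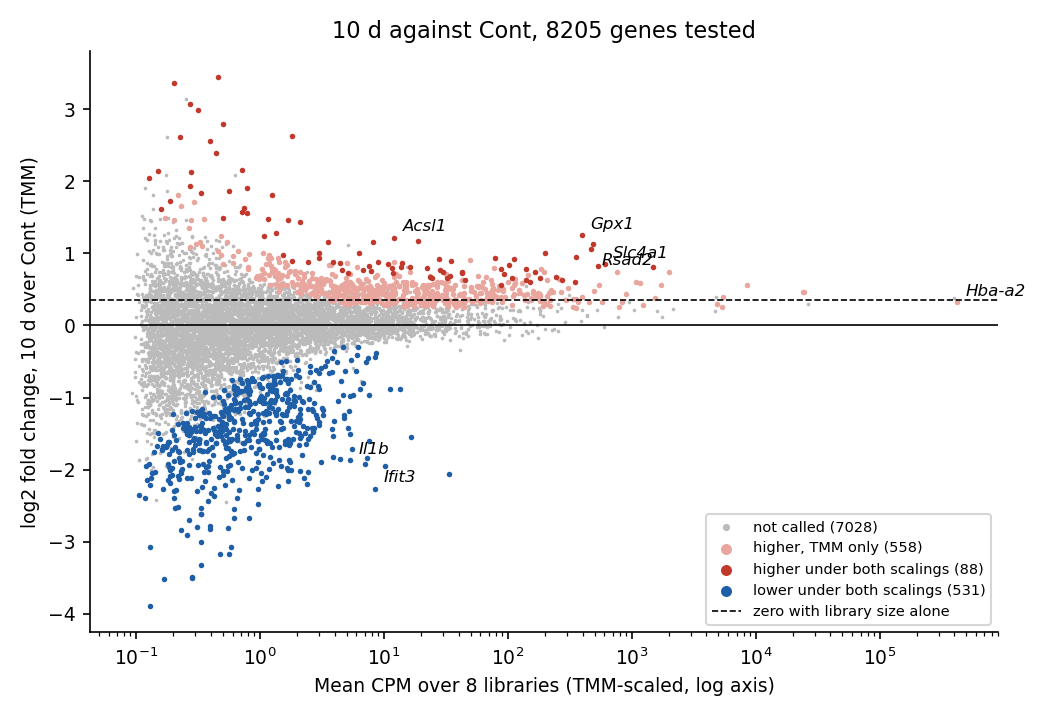
Each point is 1 of 8205 genes, with its mean CPM over the 8 libraries (TMM-scaled, log axis) on the x axis and the log2 fold change of 10 d over Cont (TMM) on the y axis. Dark red marks the 88 genes higher under both scalings, light red those higher under TMM alone, blue the 531 lower genes and grey the genes that were not called, and the dashed line is where zero would lie with library size alone. Many light red points lie near the dashed line, and *Hba-a2* lies just below it (−0.03 with library size alone).

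Transcripts of several blood cells other than RBCs moved with storage, and their summed levels stand here for all comparisons that follow. The counts of markers are to be read beside the 7.87% higher and 6.47% lower of all genes tested. Of 11 monocyte and macrophage markers tested, 11 were lower, with a summed level of 51.5 to 89.0 CPM in Cont and 5.71 to 24.1 CPM in 10 d, and 1 of 24 markers had 0 counts in all 8 libraries. Of 18 neutrophil markers, 11 were lower, from 72.5 to 123 CPM down to 21.7 to 57.2 CPM, and 2 of 34 had 0 counts in all libraries. Of 16 T cell markers 12, of 3 NK cell markers 2 and of 29 pan-leukocyte markers 16 were lower, and none of these 3 lists had a higher member. The T cell sum was 6.52 to 8.87 CPM in Cont and 2.20 to 2.70 CPM in 10 d, and the NK cell sum 0.713 to 1.26 and 0.215 to 0.497 CPM. The pan-leukocyte sum was 113 to 160 CPM in Cont and 85.0 to 104 CPM in 10 d. By contrast, 9 of 21 B cell markers and 15 of 33 platelet and megakaryocyte markers were higher, with sums of 14.3 to 17.9 against 22.2 to 26.8 CPM and of 86.2 to 91.1 against 107 to 117 CPM. The platelet and megakaryocyte list holds *Stom*, which also stands in the list of the RBC membrane skeleton below. *Stom* alone had a mean of 21.08 CPM in Cont and 35.85 CPM in 10 d, so that this sum is not of platelet RNA alone. None of the B cell and 3 of the platelet and megakaryocyte markers were lower, the latter count being 1 without Cont replicate 2 or 10 d replicate 4 and 5 without Cont replicate 1. Of only 2 eosinophil and basophil markers tested, 1 was higher, under TMM alone, and 0 were lower. The sum over these 2 genes, which need not come from such cells, was 754 to 961 CPM in Cont and 1243 to 1399 CPM in 10 d. Their median log2 fold change was −0.04, so that the sum is not a measure of eosinophils and basophils. The part of all these cells in the changes described below was not tested.

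The largest rise among genes with a symbol and outside the marker lists with a mean of at least 2 CPM that were called under both scalings and did not overlap between the groups was that of *Snord17*, a small nucleolar RNA. *Snord17* had 1.14, 1.21, 0.957 and 1.18 CPM in Cont replicates 1 to 4 and 2.34, 2.81, 3.42 and 3.62 CPM in 10 d replicates 1 to 4, so that each 10 d library was above each Cont library. TMM scaling gave a log2 fold change of 1.44 (SE 0.16, n = 4 in each group, adjusted p = 0.000105), and library size alone gave 1.09. *Snx5*, the gene in which *Snord17* lies on the same strand, was not called (log2 fold change 0.07, SE 0.13, adjusted p = 0.794) and moved to −0.28 when library size was used alone.

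*Acsl1*, an acyl-CoA synthetase that activates long-chain fatty acids, rose next to the antioxidant gene *Gpx1* described below. *Acsl1* had 6.87, 6.65, 7.36 and 8.20 CPM in Cont replicates 1 to 4 and 16.9, 18.9, 16.6 and 15.1 CPM in 10 d replicates 1 to 4, and the lowest 10 d library was well above the highest Cont library. This corresponds to a log2 fold change of 1.22 (SE 0.10, n = 4 in each group, adjusted p = 1.13e-05) under TMM, or 0.86 with library size alone. *Ankle2*, which acts on the reassembly of the nuclear envelope after mitosis, changed to a like extent (log2 fold change 1.18, SE 0.09, adjusted p = 1.13e-05). *Ddb1*, an adaptor of the cullin 4 ubiquitin ligases, rose by 1.01 log2 units (SE 0.10, adjusted p = 6.72e-05), and *Fkbp7*, a prolyl isomerase of the endoplasmic reticulum, by 1.0 (SE 0.15, adjusted p = 0.00066). *Tmem200b* also rose by 1.0 (SE 0.13, adjusted p = 0.000236), but it overlaps *Epb41* by 601 bases on the other strand and the kit is not a directional one, so that reads of the 2 genes cannot be told apart there. The same holds for *Cox6c*, *Ldha*, *Pgam1*, *Arpc1a*, *Tnrc6c*, *Ddx5*, *Tk1*, *Atg4d*, *Eif2ak1*, *Fbxl5*, *Acin1* and *H4f3*, which each overlap another tested gene on the other strand. *Mt-co1* overlaps such a gene by 3 bases, and *Mt-nd5* and *Mt-nd6* overlap each other by 23. On its own strand, *Fcgr2a_2* shares its place with a second entry, *Blvrb* overlaps *Sertad3*, and *Usp4* overlaps an unnamed gene.

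The most abundant genes with a symbol and outside the marker lists that rose under both scalings included *Ncoa4_1*, the receptor by which ferritin is brought to autophagy, and *Riok3*, a kinase of late erythroid maturation. *Riok3* had 292, 261, 282 and 271 CPM in Cont replicates 1 to 4 and 419, 438, 426 and 401 CPM in 10 d replicates 1 to 4, with no overlap. For *Riok3* the log2 fold change was 0.61 (SE 0.07, n = 4 in each group, adjusted p = 0.000136), or 0.25 with library size alone. The latter value was just within the threshold (adjusted p = 0.0494).

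The largest falls by the criteria given for *Snord17* were those of *Ifit3* and *Gbp2*, both induced by interferon, *Tagln2*, an actin-binding protein, *Anxa1*, a calcium-dependent phospholipid-binding protein, and the cytokine gene *Il1b*. *Anxa1* had 3.77, 6.25, 5.62 and 4.07 CPM in Cont replicates 1 to 4 and 0.477, 1.81, 1.85 and 1.17 CPM in 10 d replicates 1 to 4, and its log2 fold change was −1.89 (SE 0.30, n = 4 in each group, adjusted p = 0.00083). In Cont, replicates 2 and 3 were above replicates 1 and 4, and in 10 d replicate 1 was lowest. *Tagln2* fell by 2.04 log2 units (SE 0.26, adjusted p = 0.000267). The other 7 of the 12 largest falls were *Fcgr2a_2* and *Siglec8*, which encode receptors of immune cells, *Fgr*, a Src family kinase, *Cpne3*, a copine, *Pla2g7*, a phospholipase that hydrolyses platelet-activating factor, *Actr2*, a subunit of the actin-nucleating Arp2/3 complex, and *Vsir*, an immune checkpoint receptor. Their log2 fold changes lay between −1.85 and −1.53, and their Cont and 10 d libraries did not overlap.

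Of the 10 most abundant genes with a symbol and outside the marker lists that fell under both scalings, only *Ifit3* was also among the 12 largest falls. The others included *Tnrc6c*, a partner of Argonaute in microRNA silencing (log2 fold change −0.38, SE 0.10, adjusted p = 0.0182), *Clec2g*, a C-type lectin (log2 fold change −0.96, SE 0.16, adjusted p = 0.001), the RNA helicases *Ddx5* (log2 fold change −0.51, SE 0.13, adjusted p = 0.0184) and *Ddx6* (log2 fold change −0.41, SE 0.11, adjusted p = 0.0281), *Stk17b*, a kinase linked to apoptosis (log2 fold change −0.88, SE 0.12, adjusted p = 0.000351), and *Gnai2*, an inhibitory G protein subunit (log2 fold change −0.63, SE 0.16, adjusted p = 0.0165). In *Ddx5* and *Ddx6* single libraries of the 2 groups overlapped, whereas the other 4 did not.

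Most messenger RNAs of the mitochondrial genome rose, and 1 fell. Mitochondrial DNA encodes subunits of the respiratory chain and of ATP synthase, which are read from long polycistronic transcripts that are then divided into single mRNAs. Of the 13 mRNAs, 9 were higher under both scalings, 1 was lower under both scalings and 3 were not called, and the median log2 fold change was 0.81, or 0.45 with library size alone, beside −0.0010 and −0.35 over all genes tested. Their summed level was 594 to 659 CPM in Cont and 1065 to 1367 CPM in 10 d.

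*Mt-co1* had 352, 284, 292 and 288 CPM in Cont replicates 1 to 4 and 756, 653, 571 and 554 CPM in 10 d replicates 1 to 4. *Mt-co1*, the core subunit of cytochrome c oxidase, was thus far higher in the lowest 10 d library than in the highest Cont library, and its log2 fold change was 1.06 (SE 0.11, n = 4 in each group, adjusted p = 6.72e-05). *Mt-co2* had 58.3, 52.5, 52.2 and 51.7 CPM in Cont replicates 1 to 4 and 112, 113, 92.2 and 95.8 CPM in 10 d replicates 1 to 4, and the 2 groups were likewise apart. *Mt-co2*, the second subunit of that enzyme, rose by 0.94 (SE 0.09, adjusted p = 4.19e-05). *Mt-atp8* and *Mt-atp6*, subunits of ATP synthase that share 43 bases, rose by 1.16 (SE 0.11) and 0.93 (SE 0.10). *Mt-cyb*, *Mt-nd4l*, *Mt-nd2*, *Mt-nd4* and *Mt-co3* rose by 0.78 to 0.98.

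*Mt-nd3* (ENSRNOG00000033615, chromosome MT, 9451 to 9798 in mRatBN7.2), a subunit of complex I that lies between *Mt-co3* and *Mt-nd4l*, went the other way. *Mt-nd3* had 1.66, 1.97, 1.68 and 1.71 CPM in Cont replicates 1 to 4 and 1.19, 0.921, 0.866 and 0.795 CPM in 10 d replicates 1 to 4, and no 10 d library reached a Cont library. On the log2 scale the difference was −0.90 (SE 0.17, n = 4 in each group, adjusted p = 0.00245) under TMM and −1.27 with library size alone. The count of *Mt-nd3* for each count of its neighbour *Mt-co3*, a ratio within a library that no scaling of libraries changes, was 0.0164, 0.0192, 0.0161 and 0.0161 in Cont replicates 1 to 4 and 0.00605, 0.00484, 0.00539 and 0.00476 in 10 d. All 4 Cont ratios were above all 4 10 d ratios. *Mt-nd1*, *Mt-nd5* and *Mt-nd6* were not called, with log2 fold changes of 0.48, 0.24 and 0.28, the last 2 of which had a negative sign with library size alone (−0.12 and −0.07). In Cont replicate 1, *Mt-nd1* was at 5.18 CPM, against 9.01 to 10.7 in the other Cont libraries. The number of *Mt-co1* counts for each count of *Mt-nd5* was 23.3 to 25.6 in Cont and 42.9 to 44.5 in 10 d. This pair was chosen after its values were seen.

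**Figure D2:**
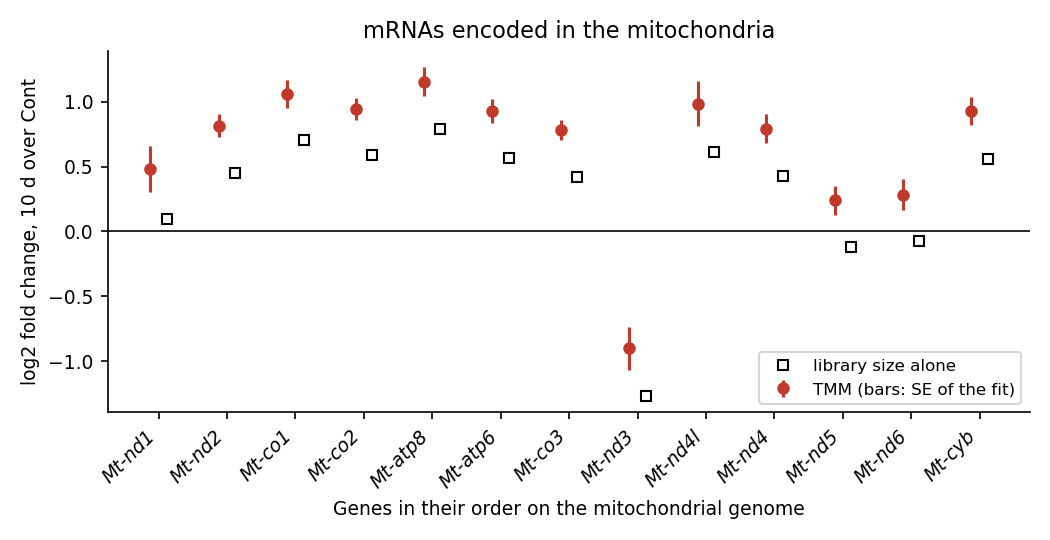
The 13 mRNAs stand on the x axis in their order on the mitochondrial genome, with the log2 fold change of 10 d over Cont on the y axis. Red points with bars give the TMM value and its SE, and open squares the value with library size alone, which is negative for *Mt-nd3* as under TMM and turns negative for *Mt-nd5* and *Mt-nd6*.

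Few respiratory chain and ATP synthase subunits encoded in the nucleus were called. Of 66 tested, 8 were higher (12.1%, beside 7.87% of all genes tested) and 0 lower, with a median of 0.17, or −0.18 with library size alone. *Atp5mf*, a small subunit of ATP synthase, was the only one higher under both scalings (log2 fold change 0.75, SE 0.11, adjusted p = 0.000584). *Atp5if1*, the inhibitor of ATP synthase, rose by 0.45 (SE 0.07, adjusted p = 0.00119), and *Cox6a1* and *Cox6c*, subunits of cytochrome c oxidase, by 0.42 and 0.77, but these 3 calls were lost with library size alone. When 1 library was left out, the number of higher members was 5 to 11, and it was 5 without Cont replicate 2 or without any 1 of the 10 d replicates.

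Genes against peroxides and other oxidants moved in both directions. RBCs meet peroxides through the auto-oxidation of hemoglobin and hold them down with glutathione peroxidase, catalase and peroxiredoxins, while *Nfe2l2* is the transcription factor that many nucleated cells use to induce such genes. Of 30 genes for peroxide, superoxide and thioredoxin enzymes, 6 were higher, 2 of them under both scalings, and 6 were lower (20.0% each way, beside 7.87% higher and 6.47% lower of all genes tested). Their summed level was 4549 to 4850 CPM in Cont and 5579 to 5762 CPM in 10 d. The count of lower members was the less stable one and was 2 without Cont replicate 2 or without 10 d replicate 2, and 3 without Cont replicate 3, 10 d replicate 1 or 10 d replicate 4.

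*Gpx1*, the main cytosolic glutathione peroxidase, had the smallest adjusted p of its list. *Gpx1* had 244, 222, 243 and 222 CPM in Cont replicates 1 to 4 and 499, 586, 572 and 566 CPM in 10 d replicates 1 to 4, which puts the 2 groups far apart. Its log2 fold change was 1.26 (SE 0.08, n = 4 in each group, adjusted p = 1.77e-06) under TMM and 0.90 with library size alone. *Gpx4*, which reduces peroxides of membrane lipids, rose as well. *Gpx4* had 35.7, 32.9, 28.4 and 30.2 CPM in Cont replicates 1 to 4 and 51.1, 59.6, 51.3 and 49.5 CPM in 10 d replicates 1 to 4, again without overlap. TMM scaling gave a log2 fold change of 0.73 (SE 0.09, n = 4 in each group, adjusted p = 0.000228), and library size alone gave 0.39. Both are selenoproteins, and of 16 tested genes of selenoproteins and their machinery they were the only 2 that rose (12.5%, beside 7.87%), while 2 fell, or 1 when any library other than Cont replicate 1 or 10 d replicate 4 was left out. *Msrb1* and *Txnrd1*, also selenoproteins, fell by 1.59 (SE 0.31, adjusted p = 0.0034) and 1.26 (SE 0.37, adjusted p = 0.035) and were called under both scalings, although Cont replicate 1 of *Txnrd1* (0.297 CPM) lay below 10 d replicate 4 (0.361 CPM). *Blvrb*, which reduces biliverdin and flavins, rose by 0.61 (SE 0.10, adjusted p = 0.00129) with a call under TMM alone. *Cat*, *Prdx2*, *Nqo1* and *Nfe2l2* were chosen after their values were seen. *Cat*, the catalase gene, rose by 0.79 (SE 0.19, adjusted p = 0.0133), with 83.6 CPM in Cont replicate 1, 189 CPM in Cont replicate 3 and 182 CPM in 10 d replicate 1, so that the groups overlapped. *Prdx2*, the main peroxiredoxin of RBCs, rose by 0.32 (SE 0.07, adjusted p = 0.00752), but its sign turned with library size alone (−0.03). The ratio of *Gpx1* to *Prdx2* counts was 0.295 to 0.327 in Cont and 0.572 to 0.635 in 10 d.

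Among the genes that fell was *Txnip*, which binds and inhibits thioredoxin. *Txnip* had 1.66, 2.27, 2.23 and 2.19 CPM in Cont replicates 1 to 4 and 0.969, 0.731, 0.851 and 0.795 CPM in 10 d replicates 1 to 4, with Cont replicate 1 lowest of its group and still above every 10 d library. This corresponds to a log2 fold change of −1.32 (SE 0.17, n = 4 in each group, adjusted p = 0.000236) under TMM, or −1.69 with library size alone. *Nqo1* had 62 counts over the 4 Cont libraries and 9 over the 4 10 d libraries (log2 fold change −2.35, SE 0.62, adjusted p = 0.0199), and *Nfe2l2* fell by 0.86 (SE 0.25, adjusted p = 0.0334). In the pentose phosphate and glutathione list, 3 of 17 tested genes were higher and 3 lower (17.65% each way, beside 7.87% and 6.47%). The lower count was 5 without 10 d replicate 3 and 2 without Cont replicate 2, 10 d replicate 1 or 10 d replicate 2. The higher count was 2 without Cont replicate 3 or 4 or without 10 d replicate 2, 3 or 4. *Glrx5*, a glutaredoxin of iron-sulfur cluster assembly, and *Gclm*, the modifier subunit of glutathione synthesis, rose by 0.47 and 0.45 under TMM alone, whereas *Gsr*, which regenerates glutathione, and *Pgd*, which makes NADPH, fell by 1.52 (SE 0.28, adjusted p = 0.0022) and 0.64 (SE 0.14, adjusted p = 0.00783) under both scalings.

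Glycolytic genes also moved in both directions. RBCs live on glycolysis and set the oxygen affinity of hemoglobin by 2,3-bisphosphoglycerate, which *Bpgm* makes. Of 21 genes tested, 2 were higher (9.52%, beside 7.87%) and 6 lower (28.6%, beside 6.47%), with a median log2 fold change of −0.41, or −0.78 with library size alone. *Bpgm* had 931, 852, 1072 and 886 CPM in Cont replicates 1 to 4 and 1384, 1424, 1496 and 1316 CPM in 10 d replicates 1 to 4, and its log2 fold change was 0.59 (SE 0.08, n = 4 in each group, adjusted p = 0.00047). *Hk1*, the hexokinase that opens the pathway in RBCs, rose by 0.60 (SE 0.08, adjusted p = 0.000353). Both kept a positive sign with library size alone (0.23 and 0.25) but were no longer called. *Ldha*, the A subunit of lactate dehydrogenase, fell by 1.23 (SE 0.23, adjusted p = 0.00234). *Pgam1* had 0.380, 0.756, 0.601 and 0.564 CPM in Cont replicates 1 to 4 and 0.0923, 0.161, 0 and 0.116 CPM in 10 d replicates 1 to 4. The phosphoglycerate mutase gene *Pgam1*, which had 202 counts over Cont and 25 over 10 d, was thus lower in each 10 d library than in any Cont library (log2 fold change −2.62, SE 0.52, adjusted p = 0.00367). The ratio of *Hk1* to *Ldha* counts was 7.16 to 10.8 in Cont and 23.9 to 45.4 in 10 d. The 6 lower genes were 2 without Cont replicate 2, Cont replicate 3 or 10 d replicate 1.

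**Figure D3:**
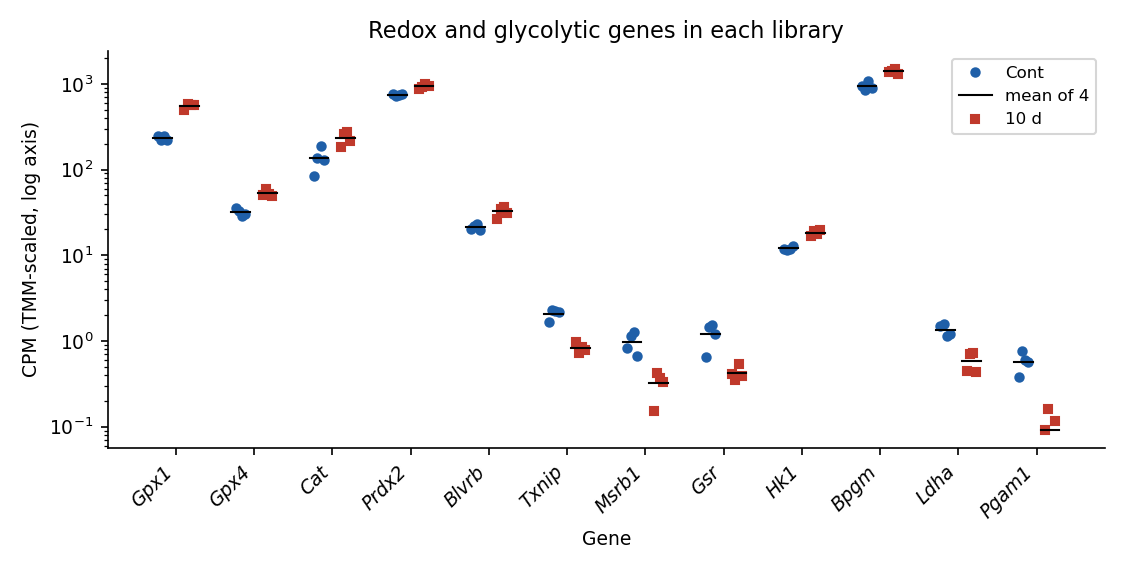
CPM (TMM-scaled, log axis) of 12 redox and glycolytic genes in each library, with blue circles for the 4 Cont and red squares for the 4 10 d libraries and a bar at each mean. *Gpx1* and *Gpx4* lie higher and *Txnip*, *Msrb1*, *Gsr*, *Ldha* and *Pgam1* lower in 10 d under both scalings, *Prdx2* turns to −0.03 on the log2 scale with library size alone, and the 10 d replicate 3 value of *Pgam1* is 0 and cannot be drawn.

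Enzymes of purine metabolism were mostly not called, with 1 higher (4.76%, beside 7.87% of all genes tested) and 2 lower (9.52%, beside 6.47%). Of 21 tested, *Gda*, a guanine deaminase, rose by 0.70 (SE 0.10, adjusted p = 0.000354) under TMM alone, and *Entpd1*, the ectonucleotidase CD39, and *Xdh*, xanthine dehydrogenase, fell by 1.33 (SE 0.26, adjusted p = 0.00364) and 1.26 (SE 0.27, adjusted p = 0.00561). The Cont replicate 1 values of *Entpd1* and *Xdh*, at 3.21 and 1.51 CPM, lay within the range of the 10 d libraries.

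Many autophagy genes rose under TMM scaling. The reticulocyte clears mitochondria and ribosomes by autophagy and feeds ferritin into it. Of 41 genes tested, 16 were higher (39.0%, beside 7.87% of all genes tested), 4 of them under both scalings, and 0 were lower. The median log2 fold change was 0.29, or −0.07 with library size alone, and the summed level was 3151 to 3528 CPM in Cont and 4514 to 4917 CPM in 10 d. With 1 library left out, 13 to 18 members were higher.

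*Ncoa4_1* had 1059, 992, 1243 and 985 CPM in Cont replicates 1 to 4 and 1903, 1968, 1923 and 1717 CPM in 10 d replicates 1 to 4, with the groups apart. For *Ncoa4_1* the log2 fold change was 0.81 (SE 0.09, n = 4 in each group, adjusted p = 8.4e-05), or 0.45 with library size alone. It is 1 of 2 overlapping entries for this gene in the annotation, between which reads may be divided. *Tax1bp1*, an autophagy receptor for ubiquitinated cargo, rose by 0.78 (SE 0.08, adjusted p = 7.88e-05), and *Atg4d*, a protease that processes ATG8 proteins, by 0.87 (SE 0.12, adjusted p = 0.000353), both under both scalings. *Vcp*, an ATPase that extracts ubiquitinated proteins, and *Sqstm1*, the receptor p62, were chosen after their values were seen and rose by 0.89 (SE 0.15, adjusted p = 0.00149) and 0.69 (SE 0.12, adjusted p = 0.00136), the latter under TMM alone. *Pink1*, a kinase that marks damaged mitochondria, and *Bnip3l*, the receptor by which reticulocytes clear mitochondria, rose by 0.57 (SE 0.07, adjusted p = 0.000276) and 0.38 (SE 0.08, adjusted p = 0.00827) under TMM alone.

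Some genes of the ubiquitin system rose, few of them under both scalings. *Ube2o*, a ubiquitin-conjugating enzyme that drives the removal of ribosomes in reticulocytes, rose under both scalings. *Ube2o* had 192, 211, 332 and 237 CPM in Cont replicates 1 to 4 and 473, 476, 495 and 431 CPM in 10 d replicates 1 to 4, where Cont replicate 3 stood above the other Cont libraries and below each 10 d library. On the log2 scale the difference was 0.95 (SE 0.14, n = 4 in each group, adjusted p = 0.00047) under TMM and 0.57 with library size alone. In all, 6 of 32 such enzymes were higher (18.75%, beside 7.87%) and 0 lower, the higher ones including *Ube2l6*, which conjugates ISG15, and *Ube2r2*, with rises of 0.62 and 0.51 under TMM alone. Of 51 ubiquitin genes and deubiquitinating enzymes, 5 were higher (9.80%, beside 7.87%) and 1 lower, a call lost without any 1 library other than Cont replicate 1. *Usp15*, a deubiquitinating enzyme, rose under both scalings (log2 fold change 0.68, SE 0.07, adjusted p = 7.39e-05), and *Usp4*, its close relative, under TMM alone (0.50). There were 3 higher genes without Cont replicate 2, Cont replicate 4, 10 d replicate 2 or 10 d replicate 4. *Ubb*, which encodes polyubiquitin, was higher under TMM (log2 fold change 0.25, SE 0.07, adjusted p = 0.0344), but library size alone gave −0.10. Of 37 proteasome genes, 5 were higher (13.5%, beside 7.87%), *Psmd8* (0.49) and *Psmd4* (0.40) among them, and none under both scalings. That count fell to 2 or 3 when any library other than Cont replicate 1 or 10 d replicate 1 was left out.

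Lysosomal genes were split like the redox genes. Of 30 tested, 6 were higher and 6 lower (20.0% each way, beside 7.87% and 6.47% of all genes tested). *Ctsd* and *Ctsb*, which encode the proteases cathepsin D and B, rose under both scalings. *Ctsd* had 89.5, 79.8, 82.8 and 84.8 CPM in Cont replicates 1 to 4 and 130.4, 132, 134 and 134 CPM in 10 d replicates 1 to 4, with very little spread within 10 d. Its log2 fold change was 0.66 (SE 0.07, n = 4 in each group, adjusted p = 7.39e-05) under TMM and 0.30 with library size alone. *Ctsb* rose by 0.63 (SE 0.08, adjusted p = 0.000304), and *Atp6v0a1*, a subunit of the proton pump that acidifies lysosomes, by 0.58 (SE 0.08, adjusted p = 0.000353) under TMM alone. *Ctsh*, a cathepsin abundant in myeloid cells and lung, fell by 1.48 (SE 0.24, adjusted p = 0.00105). The ratio of *Ctsd* to *Ctsh* counts was 30.7 to 62.8 in Cont and 129 to 251 in 10 d. Of the 12 called members, 1 also stands in a marker list, and the number of lower members was 3 without Cont replicate 2.

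Many transcripts of the RBC membrane were higher in 10 d under TMM scaling. The membrane skeleton is a net of spectrin and short actin filaments that is tied to the lipid bilayer through band 3, the anion exchanger of *Slc4a1*, and through protein 4.1 of *Epb41*. Of 26 genes tested, 15 were higher (57.7%, beside 7.87%), 5 of them under both scalings, and 3 were lower, and the median log2 fold change was 0.40, or 0.05 with library size alone. Their summed level was 1755 to 2247 CPM in Cont and 2785 to 3062 CPM in 10 d. *Slc4a1* had 357, 376, 542 and 458 CPM in Cont replicates 1 to 4 and 828, 767, 801 and 731 CPM in 10 d replicates 1 to 4, so that Cont replicates 1 and 2 were lowest and all 10 d libraries were above them. TMM scaling gave a log2 fold change of 0.85 (SE 0.12, n = 4 in each group, adjusted p = 0.000326), and library size alone gave 0.48. *Epb41* rose by 0.83 (SE 0.11, adjusted p = 0.000351), with the overlap given above. *Rhd*, a blood group protein of the Rh complex, rose by 0.71 (SE 0.08, adjusted p = 7.91e-05). *Cd44*, an adhesion receptor that leukocytes also make, fell by 0.80 (SE 0.13, adjusted p = 0.00115).

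Of 23 ion channels and pumps of RBCs, 7 were higher (30.4%, beside 7.87%), 3 of them under both scalings, and 0 lower. Apart from *Slc4a1* these were *Slc43a1*, an amino acid transporter (log2 fold change 0.81, SE 0.09, adjusted p = 9.65e-05), and *Aqp1*, the water channel of the RBC membrane (log2 fold change 0.61, SE 0.08, adjusted p = 0.000321). *Slc7a5*, another amino acid transporter, rose by 0.54 (SE 0.09, adjusted p = 0.00102) under TMM alone. Over all 109 solute carriers tested, 10 were higher (9.17%, beside 7.87%) and 5 lower (4.59%, beside 6.47%), and *Slc6a6*, the taurine transporter, was the lower one with the smallest adjusted p (log2 fold change −1.58, SE 0.21, adjusted p = 0.000302). The number of lower carriers was 1 without Cont replicate 2, Cont replicate 3, Cont replicate 4 or 10 d replicate 1, 3 without 10 d replicate 4 and 10 without Cont replicate 1, and that of higher carriers was 6 without Cont replicate 2 or 3.

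Genes of heme and iron handling rose under TMM scaling, but nearly all of these calls depended on the scaling. Heme synthesis had 7 higher of 18 genes tested (38.9%, beside 7.87%), none under both scalings and 0 lower, with a median of 0.33, or −0.02 with library size alone. *Fech* had 542, 527, 688 and 532 CPM in Cont replicates 1 to 4 and 978, 1014, 977 and 844 CPM in 10 d replicates 1 to 4, and the 4 10 d values lay above the Cont values, of which replicate 3 was highest. This corresponds to a log2 fold change of 0.74 (SE 0.10, n = 4 in each group, adjusted p = 0.0003) under TMM, or 0.37 with library size alone. *Fech*, which inserts iron into heme, thus missed the threshold under the latter scaling (adjusted p = 0.0562). *Snx3*, which recycles the transferrin receptor, rose by 0.46 under TMM alone. Without Cont replicate 2, Cont replicate 3, 10 d replicate 2 or 10 d replicate 4, 4 genes of the list were higher. Of 22 genes of iron uptake, storage and release, 8 were higher (36.4%, beside 7.87%) and 1 lower (4.545%, beside 6.47%). Without Cont replicate 2, Cont replicate 4 or 10 d replicate 4, 5 were higher. *Iscu*, the scaffold of iron-sulfur cluster assembly, and *Tfrc*, the transferrin receptor, rose by 0.57 (SE 0.09, adjusted p = 0.000591) and 0.50 (SE 0.08, adjusted p = 0.000731) under TMM alone. *Fbxl5*, the iron sensor that has the iron regulatory protein IRP2 degraded, was chosen after its values were seen and fell by 0.97 (SE 0.21, adjusted p = 0.00759).

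Of 32 erythroid transcription factor genes tested, 9 were higher, none under both scalings, and 0 lower. Their share of 28.1% stands beside 7.87% of all genes tested and 28.4% of the most abundant quintile. *E2f2*, which acts in the last divisions of erythroblasts, rose by 0.67 (SE 0.08, adjusted p = 0.000117), and *Klf1* and *Gata1*, the master factors of the erythroid lineage, by 0.45 (SE 0.08) and 0.48 (SE 0.10). Of the 8 alpha and beta globin genes, 4 were higher under TMM and 0 under library size. The shares to set beside these counts are 7.87% and 1.07% of all genes tested. Under TMM, 28.4% of the most abundant quintile was higher. *Hba-a2*, which encodes an alpha chain and shares reads with its copies, rose by 0.32 (SE 0.09, adjusted p = 0.0281) under TMM and had −0.03 with library size alone. The number of higher globin genes was 1 without Cont replicate 2 or 10 d replicate 2 and 2 without Cont replicate 4 or 10 d replicate 1.

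Interferon-stimulated genes moved in opposite directions. Interferons act through the factor ISGF3, which binds the interferon-stimulated response element in the promoters of these genes. Of 42 genes tested, 5 were higher (11.9%, beside 7.87%), 3 of them under both scalings, and 11 were lower (26.2%, beside 6.47%), with a median log2 fold change of −0.35, or −0.73 with library size alone. The number of higher genes was 3 without Cont replicate 4 or any 1 of 10 d replicates 1, 2 and 4, and that of lower genes was 6 without Cont replicate 2 and 7 without 10 d replicate 4.

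*Rsad2* (chromosome 6, 43047658 to 43059699 in mRatBN7.2) encodes viperin, an antiviral enzyme, and lies next to *Cmpk2*, a mitochondrial nucleotide kinase (chromosome 6, 43073796 to 43085183), without overlap. *Rsad2* had 346, 266, 321 and 288 CPM in Cont replicates 1 to 4 and 699, 673, 641 and 654 CPM in 10 d replicates 1 to 4, and the lowest 10 d value was far above the highest Cont value. For *Rsad2* the log2 fold change was 1.13 (SE 0.09, n = 4 in each group, adjusted p = 1.13e-05), or 0.77 with library size alone. *Cmpk2* had 24.5, 24.4, 26.3 and 25.4 CPM in Cont replicates 1 to 4 and 40.0, 42.1, 38.3 and 37.9 CPM in 10 d replicates 1 to 4, again apart. *Cmpk2* was higher under TMM (log2 fold change 0.65, SE 0.07, adjusted p = 0.000105), and library size alone gave 0.29 (adjusted p = 0.049). *Ifit1bl*, a member of the IFIT family of RNA-binding antiviral proteins, rose by 0.74 (SE 0.11, adjusted p = 0.000502), and it overlaps an unnamed gene on the other strand.

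*Ifit3*, a neighbour of *Ifit1bl* on chromosome 1 and of the same family, fell. *Ifit3* had 11.5, 20.2, 13.3 and 11.1 CPM in Cont replicates 1 to 4 and 1.29, 4.54, 3.48 and 2.36 CPM in 10 d replicates 1 to 4, with Cont replicate 2 highest and 10 d replicate 1 lowest. On the log2 scale the difference was −2.26 (SE 0.29, n = 4 in each group, adjusted p = 0.000266) under TMM and −2.62 with library size alone. *Gbp2*, a guanylate-binding protein of the response to interferon gamma, went the same way. *Gbp2* had 2.63, 6.11, 4.48 and 2.46 CPM in Cont replicates 1 to 4 and 0.308, 1.27, 1.31 and 0.506 CPM in 10 d replicates 1 to 4. Its log2 fold change was −2.20 (SE 0.39, n = 4 in each group, adjusted p = 0.00176) under TMM and −2.57 with library size alone. In *Gbp2*, too, Cont replicate 2 was highest and 10 d replicate 1 lowest. *Eif2ak2*, the kinase PKR that senses double-stranded RNA, fell by 0.29 (SE 0.09, adjusted p = 0.0344). The number of *Rsad2* counts for each count of *Ifit3* was 13.2 to 30.2 in Cont and 148 to 541 in 10 d. The monocyte and neutrophil sums given above were also lower in the 10 d libraries, and their part in these falls was not tested.

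The promoters of 2 risers and 2 fallers are shown because each holds the core letters of the interferon-stimulated response element. RefSeq promoter windows of 300 bases in the build GRCr8, which is not the build of the counts, run from 250 bases before the start of a gene to 50 bases after it. The letters searched were GAAANNGAAA on either strand, which reads TTTCNNTTTC on the other strand, and they were found in 1312 of 33469 windows (3.92%). Of the 42 genes tested, 34 had a window, and 18 of these held the letters. Among genes with a window they were in 3 of 5 higher, in 4 of 8 lower and in 11 of 21 genes that were not called. The stretches below are 5′ to 3′ on the strand of the gene, with the match in capitals.
Rsad2: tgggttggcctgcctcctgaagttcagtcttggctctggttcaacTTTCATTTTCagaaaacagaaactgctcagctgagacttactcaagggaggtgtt
Ifit1bl: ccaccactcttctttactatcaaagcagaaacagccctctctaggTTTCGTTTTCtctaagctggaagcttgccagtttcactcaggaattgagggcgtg
Ifit3: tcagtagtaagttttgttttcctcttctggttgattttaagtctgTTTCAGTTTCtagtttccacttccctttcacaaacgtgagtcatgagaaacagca
Gbp2: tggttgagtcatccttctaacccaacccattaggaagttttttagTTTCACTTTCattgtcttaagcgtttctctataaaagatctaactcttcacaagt
They lie at chr6:48788213-48788312 (strand −, Rsad2), chr1:241543621-241543720 (strand −, Ifit1bl), chr1:241527237-241527336 (strand +, Ifit3), chr2:234005651-234005750 (strand +, Gbp2). The first base of the match lay at −147 (Rsad2), −120 (Ifit1bl), −44 (Ifit3), −31 (Gbp2) relative to the gene start. In each of the 4 the letters read on the strand opposite to the gene, in *Rsad2* and *Ifit1bl*, which rose, as in *Ifit3* and *Gbp2*, which fell. A match is no proof of binding.

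**Figure D4:**
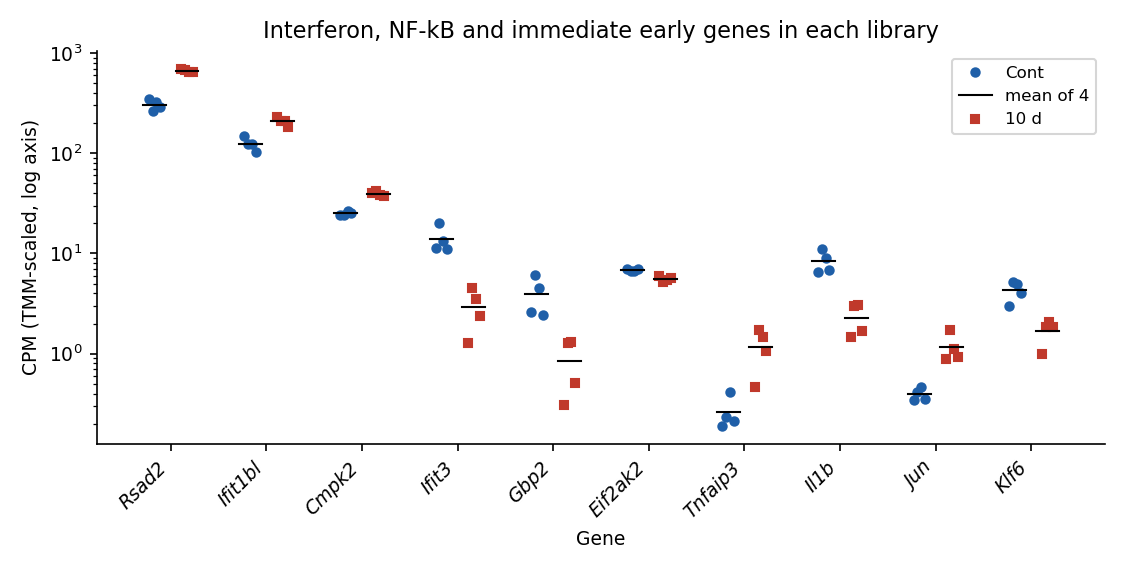
CPM (TMM-scaled, log axis) of 10 interferon, NF-kB and immediate early genes in each library, with blue circles for Cont and red squares for 10 d and a bar at each mean. *Rsad2*, *Ifit1bl*, *Cmpk2*, *Tnfaip3* and *Jun* lie higher and *Ifit3*, *Gbp2*, *Eif2ak2*, *Il1b* and *Klf6* lower in 10 d, each under both scalings and with no overlap between the groups.

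Several genes of the NF-kB and interleukin 1 pathway fell, and *Tnfaip3*, which encodes the ubiquitin-editing inhibitor A20 of this pathway, rose. Of 34 genes tested, 8 were lower (23.5%, beside 6.47%), all under both scalings, and 2 were higher (5.88%, beside 7.87%), with a median of −0.48. *Il1b* had 6.46, 11.2, 8.99 and 6.82 CPM in Cont replicates 1 to 4 and 1.46, 2.98, 3.05 and 1.69 CPM in 10 d replicates 1 to 4. TMM scaling gave a log2 fold change of −1.86 (SE 0.23, n = 4 in each group, adjusted p = 0.000228), and library size alone gave −2.23. As for *Ifit3*, Cont replicate 2 was highest and 10 d replicate 1 lowest. *Il1r2*, the decoy receptor of interleukin 1, fell by 2.43 (SE 0.38, adjusted p = 0.000846), *Tnfrsf1b*, a receptor of tumour necrosis factor, by 2.15 (SE 0.34, adjusted p = 0.000893), and *Myd88*, the adaptor of Toll-like and interleukin 1 receptors, by 2.04 (SE 0.36, adjusted p = 0.00171). *Tnfaip3* had 0.190, 0.234, 0.417 and 0.214 CPM in Cont replicates 1 to 4 and 0.462, 1.71, 1.46 and 1.06 CPM in 10 d replicates 1 to 4, of which 10 d replicate 1 was the lowest 10 d value and only a little above Cont replicate 3. This corresponds to a log2 fold change of 2.15 (SE 0.38, n = 4 in each group, adjusted p = 0.00178) under TMM, or 1.80 with library size alone. With 1 library left out, 7 or 8 genes of the list were lower, and 1 was higher unless that library was Cont replicate 1 or 10 d replicate 3. The neutrophil and monocyte sums were lower too, *Il1r2* itself stands in the neutrophil list, and the part of these cells was not tested.

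Immediate early genes also went both ways, 4 higher (18.2%, beside 7.87%) and 3 lower (13.6%, beside 6.47%) of 22 tested. *Jun* and *Fosb* form the transcription factor AP-1. *Jun* had 0.345, 0.415, 0.466 and 0.350 CPM in Cont replicates 1 to 4 and 0.892, 1.74, 1.10 and 0.925 CPM in 10 d replicates 1 to 4, without overlap. For *Jun* the log2 fold change was 1.56 (SE 0.26, n = 4 in each group, adjusted p = 0.00113), or 1.20 with library size alone. *Fosb*, picked with its values in view, rose from 22 counts over Cont to 106 over 10 d, by 2.62 log2 units (SE 0.67, adjusted p = 0.0166). *Gadd45a*, a stress sensor, rose by 0.84 (SE 0.17, adjusted p = 0.00462) under TMM alone. The Krüppel-like factor genes *Klf6* and *Klf2* fell by 1.34 (SE 0.21, adjusted p = 0.000911) and 0.85 (SE 0.21, adjusted p = 0.0151), and for *Klf2* the Cont replicate 1 value of 1.83 CPM lay among the 10 d values. The number of higher genes was 2 without 10 d replicate 2, and that of lower genes was 1 without Cont replicate 2 or 10 d replicate 4, 5 without 10 d replicate 3 and 7 without Cont replicate 1.

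In the hypoxia list, 3 of 16 genes tested were higher and 3 lower (18.75% each way, beside 7.87% and 6.47%). *Vhl*, which has hypoxia-inducible factors degraded, had 80 counts over the 4 Cont libraries and 7 over the 4 10 d libraries, of which replicate 2 had 0 (log2 fold change −3.08, SE 0.65, adjusted p = 0.00585). Of 28 apoptosis regulators, 2 were higher and 2 lower (7.14% each way), shares near those of all genes tested. Only 1 was higher without any 1 library other than Cont replicate 1 or 10 d replicate 2, and 4 were lower without Cont replicate 1. *Bcl2l1*, which encodes the survival protein BCL-XL of late erythroid cells, rose by 0.58 (SE 0.08, adjusted p = 0.00047) under TMM alone. *Pmaip1*, the pro-apoptotic NOXA, and *Casp8* fell by 2.15 (SE 0.42, adjusted p = 0.00337) and 1.43 (SE 0.32, adjusted p = 0.0077). Of 47 genes of MAP kinase signalling, 2 were higher, *Map2k3* among them (0.52, under TMM alone), and 2 were lower, *Dusp6* among them (log2 fold change −1.94, SE 0.43, adjusted p = 0.00765), or 4.255% each way. Only 1 was higher without any 1 library other than 10 d replicate 3.

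Many genes of the actin cytoskeleton and its regulators fell. Of 65 tested, 26 were lower (40%, beside 6.47%), all under both scalings, and 4 were higher (6.15%, beside 7.87%), with a median of −0.45. Their summed level of 593 to 714 CPM in Cont overlapped with the 629 to 672 CPM of 10 d. *Cfl1* had 1.82, 1.84, 1.95 and 1.79 CPM in Cont replicates 1 to 4 and 0.708, 0.848, 0.822 and 0.853 CPM in 10 d replicates 1 to 4, with little spread within either group. On the log2 scale the difference was −1.19 (SE 0.15, n = 4 in each group, adjusted p = 0.000236) under TMM and −1.55 with library size alone. *Cfl1* encodes cofilin, which severs actin filaments. *Actr2* and *Actr3*, subunits of the Arp2/3 complex, fell by 1.58 (SE 0.20, adjusted p = 0.000267) and 0.45 (SE 0.10, adjusted p = 0.00706), and *Arhgdib*, a GDP dissociation inhibitor of blood cells, by 1.46 (SE 0.18, adjusted p = 0.000228). Of the 30 called members, 5 also stand in a marker list. *Arpc1a*, a further Arp2/3 subunit, and *Myl9*, a myosin light chain abundant in platelets, were chosen after their values were seen and rose under both scalings by 0.77 (SE 0.13, adjusted p = 0.0011) and 3.44 (SE 0.52, adjusted p = 0.000595). *Myl9* had 0.214, 0.0213, 0.0245 and 0.0451 CPM in Cont replicates 1 to 4 and 0.785, 0.745, 1.06 and 0.752 CPM in 10 d replicates 1 to 4, where Cont replicate 1 stood apart from the other Cont libraries. Without 1 library, 22 to 30 genes of the list were lower. The monocyte, neutrophil and pan-leukocyte sums given above were lower too, while the B cell sum was higher, and the part of these cells in the falls was not tested.

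Of 31 Rab GTPase genes, which direct vesicle traffic, 5 were lower (16.1%, beside 6.47%) and 3 higher (9.68%, beside 7.87%). *Rab27a* (log2 fold change −1.99, SE 0.28, adjusted p = 0.000374) and *Rab32* (log2 fold change −2.40, SE 0.36, adjusted p = 0.000584), which act in secretory lysosomes and related organelles, fell, as did *Rab7a* of late endosomes (log2 fold change −0.94, SE 0.16, adjusted p = 0.00116). *Rab43* rose by 0.73 (SE 0.12, adjusted p = 0.00115) under TMM alone. Among 33 vesicle fusion proteins 4 were higher (12.1%, beside 7.87%) and 0 lower, with *Napa*, which takes SNARE complexes apart, at 0.50 (SE 0.08, adjusted p = 0.000893) under TMM alone. Of 38 genes of phospholipid remodelling, *Acsl1* and *Pnpla8*, a calcium-independent phospholipase (0.46, under TMM alone), were higher (5.26%) and 3 were lower (7.89%, beside 6.47%), *Lpcat2*, a lysophospholipid acyltransferase, among them (log2 fold change −1.46, SE 0.43, adjusted p = 0.0362). None of these 3 calls was left without Cont replicate 2, Cont replicate 3 or 10 d replicate 4, and 1 without Cont replicate 4, 10 d replicate 1 or 10 d replicate 2.

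Genes of translation showed small rises that depended on the scaling. Of 77 cytosolic ribosomal protein genes, 10 were higher (13%, beside 7.87%), such as *Rps14* (0.41), 0 were lower and none was called under both scalings. Their median of 0.16 turned to −0.19 with library size alone, and the count of higher genes was 1 without Cont replicate 2, 3 without 10 d replicate 3, 6 without Cont replicate 3 or 10 d replicate 4 and 16 without Cont replicate 1. Of 46 translation factors, 2 were higher (4.35%), *Eif3j* among them (0.45, under TMM alone), and 1 was lower (2.17%), the latter without a call when any library other than Cont replicate 1 or 10 d replicate 1 was left out. The higher count was 1 without Cont replicate 2, 10 d replicate 2 or 10 d replicate 3. Of 19 cytosolic aminoacyl-tRNA synthetase genes and cofactors, 1 was higher (5.26%), *Sars1* (0.66, under TMM alone). *Asns*, asparagine synthetase and a target of the integrated stress response, rose under both scalings. *Asns* had 21.1, 22.4, 29.3 and 24.9 CPM in Cont replicates 1 to 4 and 39.6, 44.7, 53.9 and 43.2 CPM in 10 d replicates 1 to 4, without overlap. Its log2 fold change was 0.89 (SE 0.12, n = 4 in each group, adjusted p = 0.000266) under TMM and 0.53 with library size alone. *Eif2ak1*, the heme-regulated kinase that starts this response in erythroid cells, and *Atf4*, its transcription factor, rose by 0.56 (SE 0.08, adjusted p = 0.000502) and 0.53 (SE 0.12, adjusted p = 0.0106) under TMM alone. These were 3 of the 4 higher genes among 24 of this response (16.7%, beside 7.87%), the other being *Calr*, a chaperone of the endoplasmic reticulum (0.42). Of 40 heat shock proteins and chaperones, 5 were higher (12.5%, beside 7.87%), *Dnajb6* first by adjusted p (0.58), none under both scalings and 0 lower, and 3 were higher without Cont replicate 2 or 10 d replicate 4.

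Few genes of RNA processing and chromatin were called. Of 67 spliceosome proteins, 2 were higher (2.99%, beside 7.87%), *Acin1* among them (0.47, under TMM alone), and 1, *Hnrnpf*, was lower (log2 fold change −0.62, SE 0.16, adjusted p = 0.0175), and the count of higher genes was 1 without Cont replicate 2, Cont replicate 3, 10 d replicate 1 or 10 d replicate 4, while that of lower genes was 0 without Cont replicate 2 or 10 d replicate 4. Of 50 genes of mRNA decay, 3 were higher (6.0%, beside 7.87%) and 5 lower (10.0%, beside 6.47%). *Smg5*, a factor of nonsense-mediated decay, rose under both scalings (log2 fold change 0.72, SE 0.09, adjusted p = 0.000266), and *Btg1* and *Zfp36l2*, which recruit deadenylases to mRNA, fell by 1.04 (SE 0.14, adjusted p = 0.000316) and 0.96 (SE 0.19, adjusted p = 0.0045). The number of lower genes was 8 without Cont replicate 1 and 3 without any 1 of the other libraries apart from 10 d replicate 3. Of 77 genes of chromatin remodelling and histone modification, 1, the histone methyltransferase gene *Kmt5a*, was higher (0.41, under TMM alone), and 0 were lower, or 3 without Cont replicate 1. Of 29 genes of the nuclear pore and lamina, 2 were higher (6.90%), *Lmna* among them (0.55, under TMM alone). Of 39 genes of DNA replication and the cell cycle 3 were higher (7.69%, beside 7.87%), *Tk1* among them (0.44, under TMM alone), and this count was 1 without Cont replicate 3, 10 d replicate 2 or 10 d replicate 4 and 2 without any 1 of the other libraries. Of 32 histone genes, whose copies may share reads, 5 were higher (15.6%, beside 7.87%), with *H4f3* at 0.67, none of them under both scalings. That count was 1 to 3 without Cont replicate 2, Cont replicate 4, 10 d replicate 2 or 10 d replicate 3. Of 102 genes named as zinc finger proteins 2 were higher (1.96%) and 0 lower. The higher count was 0 without Cont replicate 2 or 4, and 3 were lower without Cont replicate 1. Among 28 small structured RNAs tested, 4 were higher (14.3%, beside 7.87%) and 0 lower. *Snord17* was the only one higher under both scalings, and *Rpph1*, the RNA of ribonuclease P, rose by 0.36 under TMM alone. The higher count was 2 without 10 d replicate 4 and 3 without Cont replicate 3 or 4. *Foxo3*, a transcription factor of the AKT pathway, was 1 of 3 higher genes of 34 of the PI3K, AKT and mTOR list (0.47, under TMM alone), or 8.82% beside 7.87%, and 2 were lower (5.88%, beside 6.47%). Only 1 was higher without any 1 library other than Cont replicate 1 or 10 d replicate 3, and the lower count was 0 without Cont replicate 2 and 1 without Cont replicate 3, Cont replicate 4, 10 d replicate 3 or 10 d replicate 4.

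**Figure D5:**
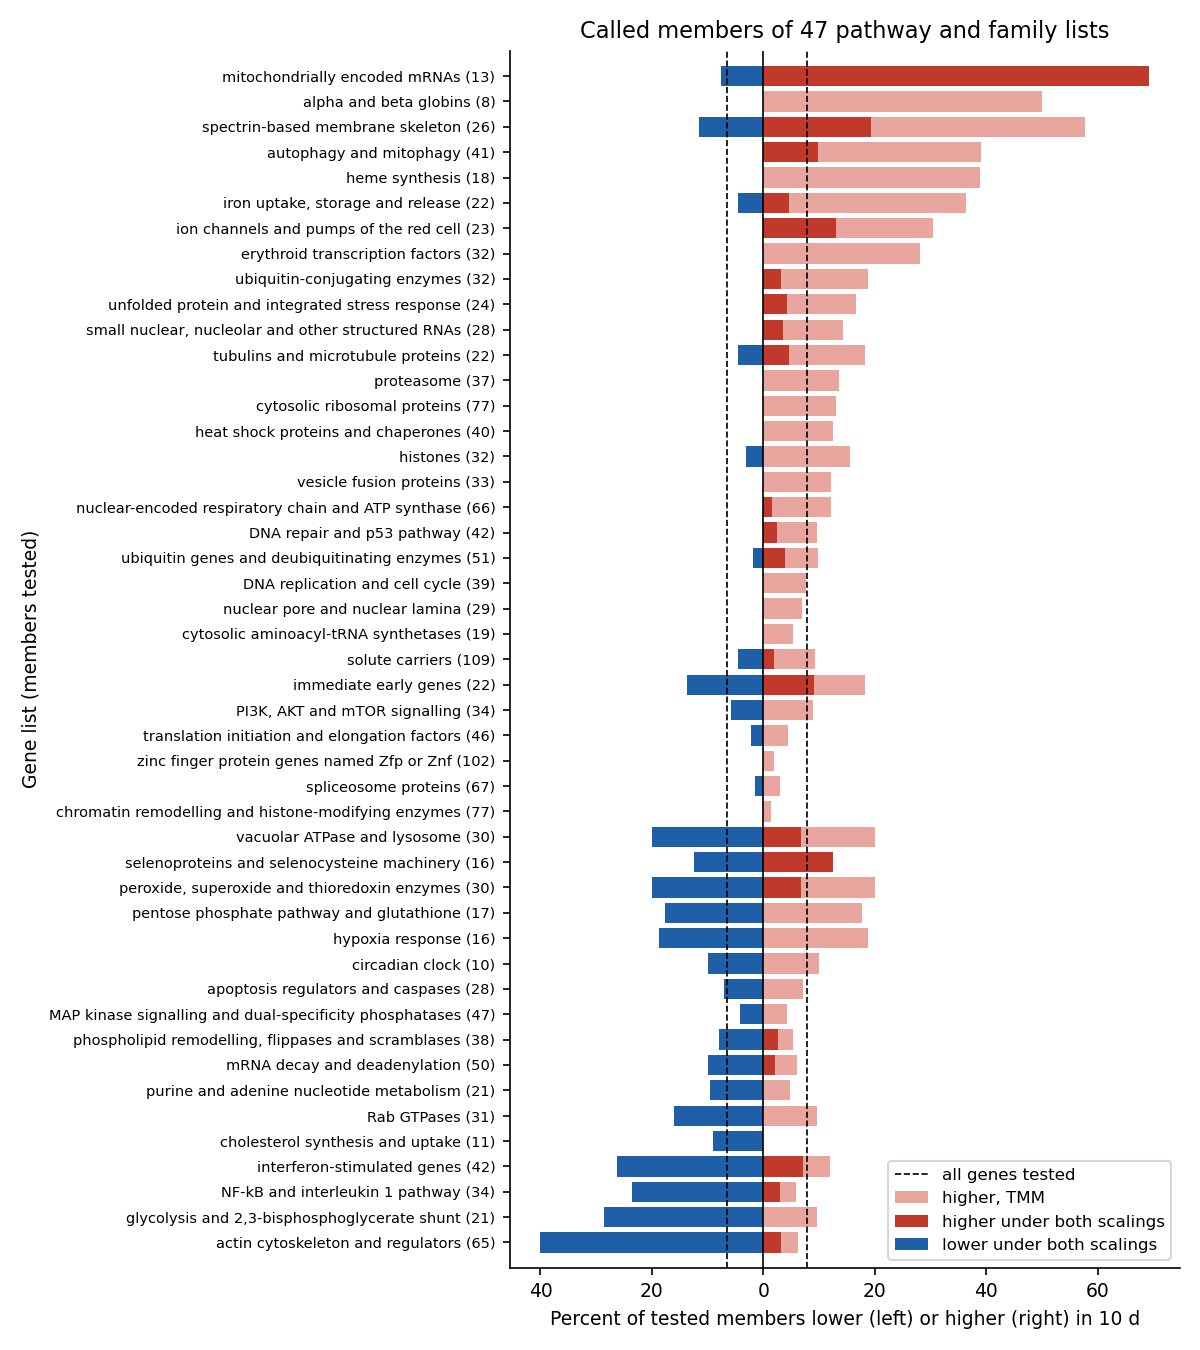
Percent of the tested members of each of 47 lists that were lower (blue, to the left) or higher (red, to the right) in 10 d, with the number of members tested in parentheses. Light red is called under TMM alone and dark red under both scalings, all blue calls hold under both, and the dashed lines mark the 7.87% higher and 6.47% lower of all genes tested.

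Of the genes with a symbol and outside the marker lists with at least 20 counts in 1 group and 0 in the other, the 5 with the most counts in Cont and the 1 found in 10 d were taken. *Sit1*, an adaptor of T cell signalling, had 37 counts over the Cont libraries and 0 over the 10 d libraries. A count of 0 allows up to 3 counts. With the 37 taken as exact, the count was thus 12.3-fold lower or more, without a correction for depth. *Stfa2l2*, of the stefin family of protease inhibitors, had 31 counts, *Ncr3*, a receptor of NK cells, and *Sv2a*, a synaptic vesicle protein, had 30 counts each, and *Mnda*, a nuclear protein of myeloid cells, had 26 counts in Cont, each with 0 in 10 d. In the other direction, *U1_151*, a U1 RNA copy that may share reads with other copies, had 20 counts in 10 d and 0 in Cont. The limit for *Sit1* covers the counting error of the 0 only, and these genes were picked for their 0 counts.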

How the data were processed

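RNA of purified rat RBCs was depleted of rRNA, sequenced with a kit that does not mark strand and mapped by the authors with CLC Genomics Workbench to mRatBN7.2. The deposited table holds, per the file headers, raw counts for each of 29539 genes and library. Beside them stand RPKM and TPM values made by the authors, and CPM values that the authors computed over an adjusted library size, a signal from which no result here was drawn. The RPKM values served only to derive gene lengths. Its 24 columns of the authors' own comparisons (fold changes, p-values and their corrections, largest group means) were not used.

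The counts of the 8 Cont and 10 d libraries (65735930 to 85996710 per library) were tested with edgeR 4.0.16 (R 4.3.3, limma 3.58.1): filterByExpr, which kept 8205 genes, TMM factors, glmQLFit and glmQLFTest without a block, Benjamini-Hochberg adjustment over all genes tested and a threshold of 0.05. The same fit was run with library size alone. Log2 fold changes were those of the fit at its default prior count, and the SE was taken from the fold change and its F statistic. A prior count of 2 was used only for log2 CPM values, from which correlations between libraries were taken. The steps were tested on simulated data. Alternatives were RLE factors, library size without globin genes, DESeq2 1.42.0, the likelihood ratio test, other count filters, a replicate block, all 12 libraries and leaving out each library. Tables were joined in pandas 2.3.3 and numpy 2.4.6 under Python 3.11.15, and plots drawn in matplotlib 3.10.9. Promoters came from RefSeq (GRCr8).

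Named genes had a symbol and were the 12 largest rises and falls called under both scalings with a mean of at least 2 CPM, no overlap between groups and no place in a marker list, the 10 most abundant each way called under both scalings and outside the marker lists, up to 4 members of each pathway list with the smallest adjusted p, and up to 5 genes each way with 0 counts in 1 group. Members and lists were chosen with earlier results of these data known. *Cat*, *Prdx2*, *Nqo1*, *Nfe2l2*, *Sqstm1*, *Vcp*, *Fbxl5*, *Fosb*, *Arpc1a*, *Myl9* and *Snx5*, the other mitochondrial mRNAs and the gene pairs of the count ratios were chosen after their values were seen. Some genes that the rule took are not reported here.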

Additional observations from a re-analysis of the deposited data

Results flagged for a closer look

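In 19 of 300 groups of 4 libraries, each the Cont or the 10 d values of 1 named gene, a single library stood far from the other 3 by Dixon's ratio, and chance flags about 1 group in 20. Of these, 9 were values of Cont replicate 1. It was high for *Mt-co1* (352 CPM against 284 to 292), *Mt-co2* (58.3 against 51.7 to 52.5), *Atp5if1* (151 against 130.5 to 131), *Rhd* (79.2 against 66.2 to 67.7), *Bnip3l* (1548 against 1266 to 1283) and *Myl9* (0.214 against 0.0213 to 0.0451). It was low for *Mt-nd2* (11.4 CPM against 11.8 to 11.9), *Actr2* (2.34 against 3.91 to 4.23) and *Txnip* (1.66 against 2.19 to 2.27). Cont replicate 1 also had the lowest TMM factor of the Cont libraries, 0.978.

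Cont replicate 3 was high for *Mt-cyb* (23.0 CPM against 17.6 to 18.1), *Gclm* (67.6 against 57.1 to 58.8), *Gda* (135 against 103 to 104) and *Fech* (688.5 against 527 to 542), and Cont replicate 2 was high for *Mt-nd3* (1.97 against 1.66 to 1.71). Among the 10 d libraries, replicate 3 was high for *Ddb1* (9.72 CPM against 7.95 to 8.10) and *Myl9* (1.06 against 0.745 to 0.785). Replicate 1 was low for *Tnrc6c* (6.34 against 7.79 to 7.97) and *Myd88* (0.215 against 0.438 to 0.463), and replicate 4 was low for *Tmem200b* (244 against 269 to 273).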

How the results depend on the processing

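Scaling mattered most. With library size alone 88 genes were higher and 1842 lower. With library size without globin genes the counts were 116 and 2171, and 1840 of the latter were also lower with library size alone. Of 150 named genes, 144 kept their direction under every one of 17 alternatives in which they were tested, and 6 turned with library size alone, *Mt-nd5* (−0.12), *Mt-nd6* (−0.0738), *Ubb* (−0.10), *Hba-a2* (−0.0339), *Prdx2* (−0.0320) and *Snx5* (−0.28). With library size without globin genes the same 6 had −0.11, −0.0739, −0.10, −0.0319, −0.0346 and −0.28. A further 47 named genes lost their call with library size alone. Requiring 1 CPM in at least 4 libraries left 3742 genes to test and 297 lower genes. Leaving out 1 library gave 426 to 728 higher genes, 335 to 710 lower genes, and 41 to 111 higher and 335 to 710 lower genes under both scalings. The lowest of each came without Cont replicate 2. RLE factors, DESeq2 and the likelihood ratio test changed no call of a named gene. Replicate numbers were not taken to pair the libraries, since no source ties them to a rat and same-numbered deviations correlated at only 0.0401 to 0.218. As a hint from the data, 4 of 4 Cont but 2 of 4 10 d libraries correlated best with their own number. The replicate block gave 928 higher and 746 lower genes, 210 and 746 under both scalings, and lost no named call. Genes near 0.1 CPM rest on few counts per library, which limits what fold change could be detected.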
